A study of Mus musculus with 4 samples.

Results

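The ETS family is a group of transcription factors that share a DNA-binding domain and recognise sites built around a GGAA core. Described here are the genes of 10 family members, chosen by name: Etv6, Erg, Fli1, Spi1, Elf1, Elf2, Elf4, Ets1, Ets2 and Gabpa, out of 21779 protein-coding genes placed in the mouse genome build GRCm38. For each gene, the peaks of 4 CUT&Tag libraries that overlapped the gene body or the 1 kb on either side of it were collected, and those within 1 kb of a gene end were kept apart from those further inside. CUT&Tag uses an antibody to bring a transposase to chromatin, where it inserts sequencing adapters, so that places near the antibody's target yield fragments. The cells were primary haematopoietic stem cells from bone marrow of mice wild type for Ppp2ca. For 2 libraries (PPP2CA 1 and PPP2CA 2) the antibody was to PPP2CA, the catalytic subunit of the protein phosphatase PP2A, and for the other 2 (IgG 1 and IgG 2) it was control IgG. The strain and age of the mice are not given in the sources used here, nor is the animal behind each library, so the spread between libraries may be technical.

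In blood formation several ETS factors are central. Erg and Etv6 are required to maintain adult stem cells in the mouse, Fli1 acts with Erg in these cells and in megakaryocytes, Spi1 encodes PU.1, which directs myeloid and B lymphoid fate, and Elf4 promotes the exit of mouse stem cells from quiescence. Ets1 acts in lymphocyte development, Elf1 and Elf2 regulate genes of blood and endothelial cells, Ets2 is a nuclear target of Ras and MAPK signalling, and Gabpa encodes the DNA-binding subunit of GABP, which activates many genes of basic cell function. PPP2CA is not itself known as a DNA-binding protein, and a peak here is a place marked with its antibody, not a measure of how much a gene is transcribed.

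The PPP2CA lists held 16811 and 17686 peaks, and the IgG lists 561 and 310. Summits had a median of 18 fragments in both PPP2CA lists, against 4 in both IgG lists, and PPP2CA backgrounds over the genome exceeded those of IgG by a factor of 9.34 to 9.61, so the lists are of unequal depth. Peaks of the PPP2CA libraries that overlapped were joined into regions, and a region was called replicated when both libraries had a peak in it and neither IgG library did, which left 12438 regions. Of genes fixed as markers of the labelled cell type, Kit, Mecom and Meis1 had a replicated region at a gene end and Fgd5 had one inside the gene only, while Hlf, Procr, Slamf1, Hoxb5 and Cd34 had none. Of the markers of other cells, Cd3d, Klf1 and Epor had one, and Cd3e, Cd3g, the 3 B cell, 4 myeloid and 4 stromal and endothelial markers had none. These marks do not measure expression, and the purity of the cells was not tested. Of all protein-coding genes, 39.5% had a replicated region at a gene end and 45.3% had one in the gene or within 1 kb of it.

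All 10 ETS genes carried a replicated PPP2CA region somewhere in the gene or within 1 kb of it, against 45.3% of all protein-coding genes. Of the 10, 7 had a region at a gene end (Etv6, Spi1, Elf1, Elf2, Elf4, Ets2 and Gabpa), against 39.5% of all protein-coding genes. Inside the gene and away from its ends, 9 of the 10 had a region, all but Gabpa, against 10.7% of all protein-coding genes and 17.9% of the 10414 that are at least as long as Ets2, the shortest of the 10 at 18.6 kb. The 10 genes held 16 inside regions, 1.56 per 100 kb of gene, and all protein-coding genes 0.292 per 100 kb; the protein-coding genes with at least 1 inside region, as 9 of the 10 are, held 1.5 per 100 kb. The 16 became 8 with a minimum of 20 summit fragments and 26 without PPP2CA 1. The 10 are long genes, with a median of 94.6 kb against 17.2 kb for all, and since they were chosen with results of these data known, no test of the list was made. Erg, Fli1 and Ets1 were the 3 without a region at either end.

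**Figure D1:**
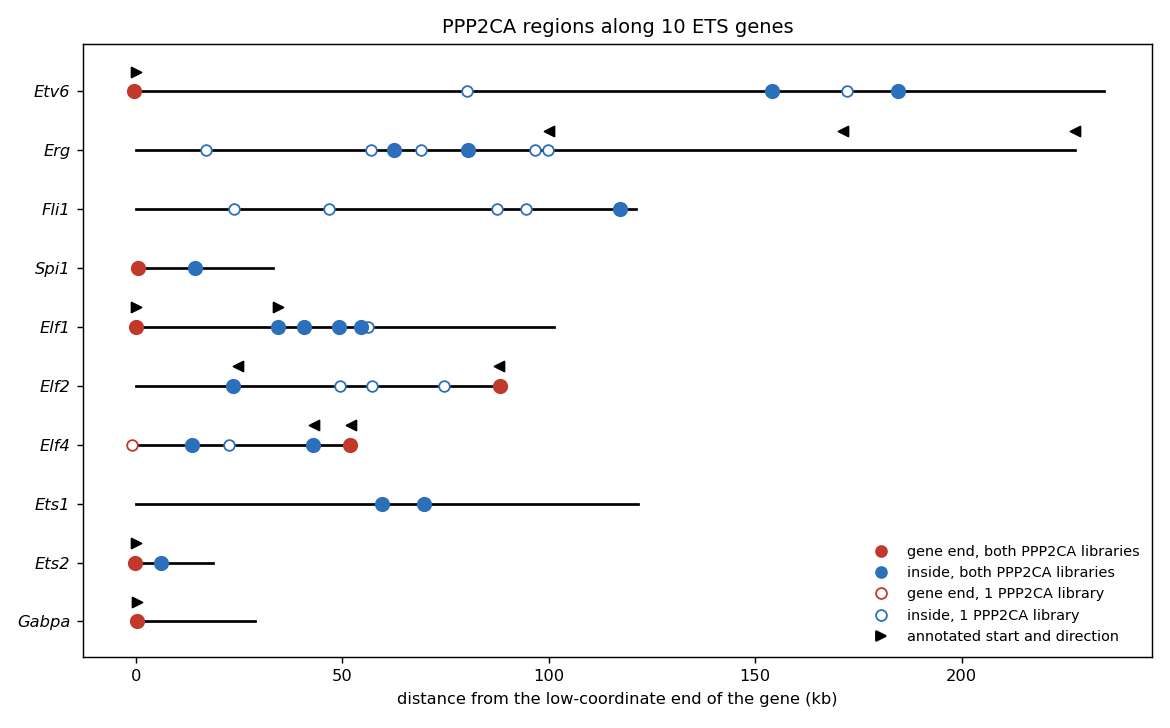
Position of PPP2CA regions along the 10 ETS genes, in kb from the low-coordinate end of each gene. Filled circles are the 23 replicated regions (placed midway between the summits of both libraries), open circles the 17 regions called in 1 PPP2CA library, and arrowheads the starts that the RefSeq promoter table gives for 7 of the genes. Red circles sit on gene ends and blue circles lie inside; Erg, Fli1 and Ets1 have no red circle.

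The ELF genes held the strongest region of the set. In each of the 3, replicated regions overlapped both of the starts that the promoter table gives. At the inner start of Elf2 only the edge of the region did, with summits 1211 and 1174 bp downstream. The promoters of these ELF starts (250 bases before to 50 after the annotated start, RefSeq, GRCm38.p6) are printed because they show how unlike the outer and inner starts under PPP2CA regions are. Capitals mark every GGAA core on either strand (GGAA or TTCC).
Elf2 outer start, chr3:51340595-51340894, minus strand: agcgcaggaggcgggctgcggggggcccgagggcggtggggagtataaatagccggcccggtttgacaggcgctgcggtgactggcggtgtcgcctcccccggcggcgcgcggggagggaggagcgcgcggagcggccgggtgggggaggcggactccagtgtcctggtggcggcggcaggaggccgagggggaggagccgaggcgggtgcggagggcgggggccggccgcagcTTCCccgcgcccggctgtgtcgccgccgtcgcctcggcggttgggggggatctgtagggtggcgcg
Elf2 inner start, chr3:51277465-51277764, minus strand: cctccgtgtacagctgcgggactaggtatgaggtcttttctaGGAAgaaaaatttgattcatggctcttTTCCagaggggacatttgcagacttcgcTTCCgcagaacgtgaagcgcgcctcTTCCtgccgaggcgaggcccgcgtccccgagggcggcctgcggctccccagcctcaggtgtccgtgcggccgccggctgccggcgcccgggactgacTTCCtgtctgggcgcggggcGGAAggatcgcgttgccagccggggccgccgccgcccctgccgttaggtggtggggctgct
Elf1 outer start, chr14:79480944-79481243, plus strand: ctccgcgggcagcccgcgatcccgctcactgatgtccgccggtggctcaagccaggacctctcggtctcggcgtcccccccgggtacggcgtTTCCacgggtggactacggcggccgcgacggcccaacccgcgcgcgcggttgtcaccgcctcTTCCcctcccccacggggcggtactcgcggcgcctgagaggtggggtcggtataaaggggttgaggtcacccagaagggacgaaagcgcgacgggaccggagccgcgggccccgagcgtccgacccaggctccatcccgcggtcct
Elf1 inner start, chr14:79515424-79515723, plus strand: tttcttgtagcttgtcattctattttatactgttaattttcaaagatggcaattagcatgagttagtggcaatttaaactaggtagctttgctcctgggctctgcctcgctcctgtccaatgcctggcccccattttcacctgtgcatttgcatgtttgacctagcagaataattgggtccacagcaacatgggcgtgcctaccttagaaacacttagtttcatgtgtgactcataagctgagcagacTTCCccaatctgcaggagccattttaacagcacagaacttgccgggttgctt
Elf4 outer start, chrX:48463083-48463382, minus strand: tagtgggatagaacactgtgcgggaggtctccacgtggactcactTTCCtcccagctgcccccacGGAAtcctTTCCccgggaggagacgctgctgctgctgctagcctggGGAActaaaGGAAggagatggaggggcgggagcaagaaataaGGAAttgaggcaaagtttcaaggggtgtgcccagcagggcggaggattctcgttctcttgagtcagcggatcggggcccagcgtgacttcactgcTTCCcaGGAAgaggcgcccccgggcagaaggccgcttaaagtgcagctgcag
Elf4 inner start, chrX:48454270-48454569, minus strand: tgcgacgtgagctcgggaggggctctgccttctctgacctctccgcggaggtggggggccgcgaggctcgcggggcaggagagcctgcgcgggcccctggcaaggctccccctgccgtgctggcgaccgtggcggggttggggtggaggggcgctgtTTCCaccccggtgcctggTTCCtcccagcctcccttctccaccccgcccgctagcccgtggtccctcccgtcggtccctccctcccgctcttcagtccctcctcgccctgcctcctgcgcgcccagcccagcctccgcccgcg
The outer start of Elf2 is 78.7% G and C with 1 GGAA core, and its inner start 67.0% with 6 cores. For Elf1 the outer start is 73.0% G and C and the inner start 44.7%, the lowest of the 9 starts under a region. For Elf4 the order is turned round, with 60.0% at the outer start and 75.3% at the inner one.

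Elf2 (chromosome 3, 51252720 to 51340683) had its gene end region at 51340185 to 51341842. Its summit held 136 fragments in PPP2CA 1 and 126 in PPP2CA 2, and the authors' fold over the local background was 9.78 and 7.86. Ranked by the worse of its 2 within-library ranks of −log10 q, it stood at place 604 of the 12438 replicated regions (4.86%). The summits lay 4 bp apart, at -306 and -310 bp from the annotated start, a negative value being upstream. The inner region, at 51275996 to 51277591, spanned the inner start and also overlapped the lncRNA gene 4930577N17Rik. It held 57 fragments in PPP2CA 1 and 95 in PPP2CA 2 (fold 6.24 and 7.31), with the summits at 1211 and 1174 bp downstream of the inner start. This was the member region whose libraries stood furthest apart by p. Scaled by the total of summit fragments over all replicated regions, PPP2CA 2 held 1.53 times the fragments of PPP2CA 1 (95% exact interval 1.09 to 2.16, exact binomial test p = 0.0117, adjusted p = 1.0 over all 12438 regions).

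Elf1 (chromosome 14, 79481174 to 79582491) had 5 replicated regions, the most of the 10 genes. The one at the gene end, 79480798 to 79482116, held 77 and 83 fragments in PPP2CA 1 and 2 (fold 8.30 and 7.91) and ranked at place 1158 (9.31%). It is shared with the neighbouring end of Wbp4, a gene for a spliceosome protein, and contains the glutamate tRNA gene n-TEttc4, so the signal cannot be assigned to Elf1 alone. The region at the inner start held 21 fragments in each library, with summits at 32 and 29 bp from that start. Further inside lay 3 more regions with 15 to 22 fragments each. One of them had its summit at the same base in both libraries, 40.8 kb from the low-coordinate end, and another, the one with 17 and 15 fragments, had summits 408 bp apart. The region with the shared summit base and that at the inner start lie within the span of the pseudogene Gm9243 (79486665 to 79529900). The one with 21 and 22 fragments lies within 1 kb of the end of Gm9243.

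Elf4 (chromosome X, 48411049 to 48463132) was marked more at its inner than at its outer start. The outer region held 9 fragments in PPP2CA 1 and 6 in PPP2CA 2 (fold 5.61 and 3.89), and the peaks had summits 403 bp apart. It ranked at place 12182 (98.3%), and it was lost when a −log10 q of at least 5 was required of each peak, with a minimum of 20 summit fragments, and with a reciprocal overlap of 50%; the gene end call for Elf4 therefore rests on few fragments. The inner region at 48452701 to 48454647, the widest of the 23 at 1947 bp, held 27 and 30 fragments (fold 5.36 and 5.86) with summits at 201 and 341 bp from the inner start. Another region, 29.6 kb downstream of the inner start, held 23 and 21 fragments with summits 3 bp apart. At the other end of the gene PPP2CA 2 alone had a peak, of 10 fragments.

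Gabpa (chromosome 16, 84834891 to 84863783) carried 1 region, with the highest fold of the 23. It held 62 fragments in PPP2CA 1 and 72 in PPP2CA 2 (fold 10.3 and 10.5), and its summits lay at -13 and 5 bp from the annotated start. The region, 84834456 to 84835764, also lies within 1 kb of the end of Atp5j, a gene for a subunit of ATP synthase, and cannot be assigned to either gene. By rank it stood at place 1162 (9.34%), close to the Elf1 region. Its promoter is shown because it was the one among the members' promoters that held the longer ETS site CCGGAA, read here on the other strand as TTCCGG, beginning at -92 bases from the start; capitals again mark GGAA cores and this site.
Gabpa start, chr16:84834874-84835173, plus strand: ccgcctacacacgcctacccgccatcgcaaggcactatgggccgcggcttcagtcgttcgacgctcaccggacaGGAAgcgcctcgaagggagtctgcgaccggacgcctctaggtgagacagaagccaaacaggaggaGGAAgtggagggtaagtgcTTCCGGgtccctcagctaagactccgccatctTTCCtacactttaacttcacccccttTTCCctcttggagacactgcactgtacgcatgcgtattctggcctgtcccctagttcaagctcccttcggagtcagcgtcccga

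Etv6, a transcriptional repressor, is the longest of the 10 genes (chromosome 6, 134035700 to 134270158, 234 kb). Its gene end region, 134034589 to 134036293, held 47 fragments in PPP2CA 1 and 51 in PPP2CA 2 (fold 7.25 and 7.05). The summits lay 8 bp apart, at -294 and -286 bp from the annotated start. The region also covers the end of the predicted protein-coding gene Gm46977, at 134035312. The summits, at 134035406 and 134035414, lie closer to that end than to the Etv6 start. The signal therefore cannot be assigned to Etv6 alone. Of the 2 inside regions, the one 154.1 kb from the start held 16 and 12 fragments and the one 184.7 kb from it 14 and 10. Both inside regions were weak, at places 12085 and 10740 of the 12438, so the strongest region of Etv6 was the one shared with Gm46977.

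Ets2 and Ets1, close relatives, were marked in different places relative to their gene ends. The promoter table lists no start for Ets1, so whether its regions lie at a start was not tested. Ets2 (chromosome 16, 95702407 to 95721049) had a region at its annotated start, 95701905 to 95703058, with 51 fragments in PPP2CA 1 and 60 in PPP2CA 2 (fold 8.65 and 8.05) and place 1831 (14.7%). The summits lay 358 bp apart, at -251 bp in PPP2CA 1 and 107 bp in PPP2CA 2, although both peaks had the same start and end. A second region 6.1 kb into Ets2 held 17 and 21 fragments with its summit at the same base in both libraries. Ets1 (chromosome 9, 32636241 to 32757820) had no region at either end, and its 2 inside regions held 10 and 10 fragments, 59.8 kb from the low-coordinate end, and 13 and 17 fragments, 69.8 and 70.0 kb from it. No other member had so little signal: with a minimum of 20 summit fragments Ets1 was the 1 gene of the 10 left with no region.

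Erg and Fli1, of the same ETS subfamily, were marked inside the gene only. Erg (chromosome 16, 95359169 to 95586600) has 3 starts in the promoter table, and none of them lay in a replicated region. Its stronger region, 95438899 to 95440087, held 29 fragments in PPP2CA 1 and 38 in PPP2CA 2 (fold 5.65 and 6.13), with summits 75 bp apart and 19.8 kb downstream of the innermost start. The weaker one, 95421535 to 95422121, held 7 and 10 fragments. Near the innermost start each library had a peak of its own that did not overlap the other's. The PPP2CA 1 peak held 21 fragments, 3413 bp downstream of the start, and the PPP2CA 2 peak 20 fragments, 226 bp downstream. The promoter of that start is printed as the unreplicated counterpart of the ELF starts, with GGAA cores in capitals; 46.0% of its bases are G or C.
Erg innermost start, chr16:95459299-95459598, minus strand: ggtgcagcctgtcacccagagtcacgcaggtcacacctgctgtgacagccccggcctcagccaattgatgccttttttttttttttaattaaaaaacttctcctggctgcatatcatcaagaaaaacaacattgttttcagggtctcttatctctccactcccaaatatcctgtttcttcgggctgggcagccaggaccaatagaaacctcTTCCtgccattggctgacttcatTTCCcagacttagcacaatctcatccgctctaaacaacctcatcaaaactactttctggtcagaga

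Fli1 (chromosome 9, 32422204 to 32543432) had 1 replicated region, 32539128 to 32540826, whose summits lay 3.9 and 4.0 kb inside the high-coordinate end and thus outside the 1 kb window. It held 24 fragments in PPP2CA 1 and 39 in PPP2CA 2 (fold 3.47 and 4.68). Scaled by the total of summit fragments over all replicated regions, PPP2CA 2 held 1.49 times as many (95% exact interval 0.873 to 2.59). The fold was low beside the fragment number because the local background was high, 6.20 and 7.54 fragments, where the genome-wide background was 0.784 and 0.8 fragments. A window of 2 kb still left this region outside the gene end. The promoter table lists no start for Fli1, so whether the region lies at a start was not tested. Another 4 peaks of 5 to 20 fragments were called in Fli1 in 1 library each.

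Spi1 (chromosome 2, 91082374 to 91115759) was marked at its low-coordinate end and inside, at a like height in PPP2CA 1 but not in PPP2CA 2. The gene end region, 91082321 to 91083696, held 47 fragments in PPP2CA 1 and 57 in PPP2CA 2, and the inside region, 91096558 to 91097481, held 44 and 35. The order of the folds was the opposite, 4.64 and 4.95 at the gene end and 7.52 and 5.44 inside, since the local background was 9.34 and 10.7 fragments at the gene end and 4.98 and 5.62 inside. Etv6 shows the same effect of the scale: its gene end region held as many fragments in PPP2CA 1 as that of Spi1 (47), over a local background of 5.62, and had a fold of 7.25. The inside region lies 14.5 and 14.6 kb from the low-coordinate end by its summits. It was the highest inside region in fold in PPP2CA 1, and it had the second highest fragment number there after the inner region of Elf2.

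**Figure D2:**
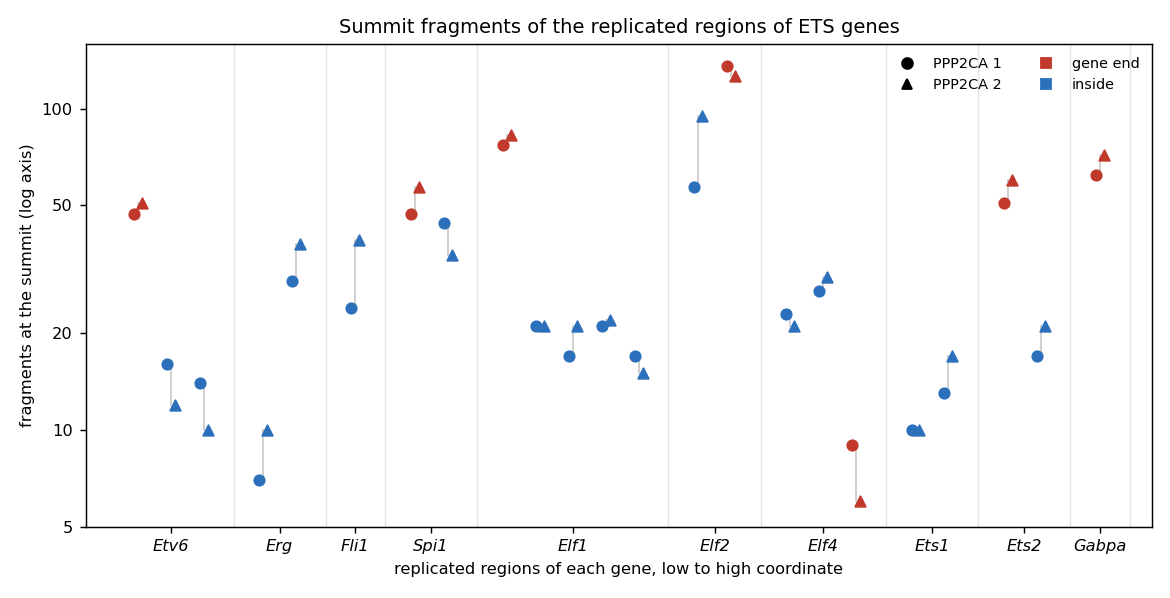
Fragments at the summit of each of the 23 replicated regions of the 10 ETS genes, on a log axis, grouped by gene. Circles are PPP2CA 1 and triangles PPP2CA 2, red for gene ends and blue for regions inside the gene. The outer end of Elf2 stands highest (136 and 126 fragments) and the outer end of Elf4 lowest among gene ends (9 and 6).

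Among the members, the median region at gene ends was higher and wider than the median region inside. The 7 gene end regions had 9 to 136 fragments in PPP2CA 1 (median 51) and 6 to 126 in PPP2CA 2 (median 60), and the 16 inside regions 7 to 57 (median 19) and 10 to 95 (median 21). Over all protein-coding genes the medians were 28 and 31 at gene ends and 19 and 20 inside. The 2 ranges overlapped among the members: the inner region of Elf2 was above 6 of the 7 gene end regions in PPP2CA 2 and Elf4's gene end was below every inside region there. In fold, the gene end regions had a median of 8.3 and 7.86, against 6.92 and 6.88 for all such regions, and the inside regions 5.35 and 5.06, against 5.49 and 5.53. The median width was 1319 bp at gene ends and 908 bp inside.

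**Figure D3:**
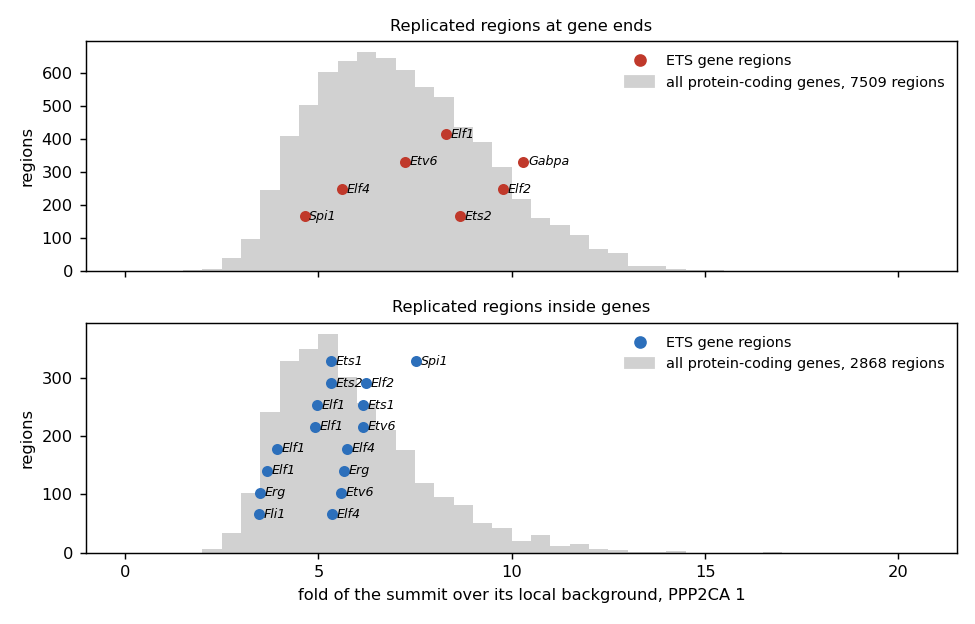
Distribution of the authors' fold in PPP2CA 1 over all replicated regions at gene ends (upper panel, 7509 regions) and inside protein-coding genes (lower panel, 2868 regions), as grey bars counting regions. Coloured points are the regions of the ETS genes, at their fold on the horizontal axis; their height has no meaning. Gabpa and Elf2 lie to the right at gene ends, Spi1 has the lowest fold there, and inside genes the points lie between 3.47 and 7.52.

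For the 6 of these genes with a gene end region and a start in the promoter table, the region was at the end that holds the start in all 6, and at none was the other end marked in both libraries. Over all protein-coding genes in that table the share was 96.3% of 7069, so the members did as most genes do. Of the 12 starts listed for 7 members, 9 lay in a replicated region, against 28.1% of all 32851 starts; the exceptions were the 3 starts of Erg. Of the 12 inside regions in genes with a listed start, 3 were within 1 kb of one (the inner starts of Elf1, Elf2 and Elf4), near the 32.0% of all inside regions. The other 9 had no listed start that close, and the table is not complete. Fli1, Spi1 and Ets1 are not in it.

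The promoters under PPP2CA regions as a whole held the ETS site more often than other promoters did, and 1 of 9 such promoters of the ETS genes held it. The letters CCGGAA, on either strand, were present in 32.5% of the 9226 promoters in a replicated region, against 8.03% of the 23625 promoters outside one and 14.9% of all 32851. The longer form CCGGAAGT, which contains CCGGAA, was present in 9.78% of promoters in a region, against 1.59% outside one and 3.89% of all. Median G and C content was 63.0% in regions and 49.3% outside, and its part in the difference was not tested. Among the member promoters in a region, that of Gabpa held CCGGAA and none held CCGGAAGT; with 9 promoters of 6 genes this was not tested. Neither was present in the 3 promoters of Erg. The GGAA core alone was in 95.3% of promoters in a region and in 96.0% of all. A match is a run of letters in a window of 300 bases, not a bound site.

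Most regions at the ends of ETS genes, but not most of those inside, recurred between the PPP2CA libraries. Of 40 regions called in at least 1 PPP2CA library, 23 were called in both (57.5%). At gene ends 7 of 8 recurred, where 79.3% did over all protein-coding genes, and inside genes 16 of 32, where 41.9% did. The 17 regions of 1 library were low, with 5 to 21 fragments; 6 of the inside ones were in PPP2CA 1 and 10 in PPP2CA 2. Erg had 5 of them, Fli1 4 and Elf2 3. Summits of the replicated regions lay within 100 bp of each other in 14 of 23 (60.9%), near the 54.6% of all 12438 regions. In the exact binomial test of the fragments of PPP2CA 2 against PPP2CA 1, scaled by the total over all regions, none of the 23 regions had an adjusted p under 0.05 (0.0% of all 12438) and 1 had an unadjusted p under 0.05 (1.93% of all), the inner region of Elf2. That test compares 2 libraries, which were counted as 1 sample and are given without mean or SD. It took in only regions called in both libraries, so the 17 regions of 1 library did not enter it. Intervals cover counting error only, and they treat each fragment as an independent molecule, which fragments copied by PCR are not.

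**Figure D4:**
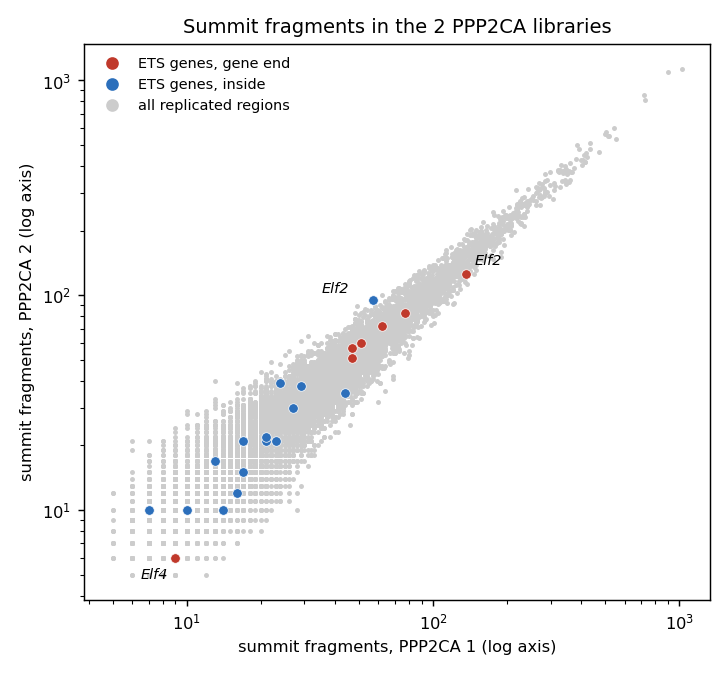
Summit fragments of the 12438 replicated regions in PPP2CA 1 (horizontal) and PPP2CA 2 (vertical), both on log axes; each grey point is a region, and red and blue points are the gene end and inside regions of the ETS genes. The coloured points follow the grey cloud; the blue point labelled Elf2 (57 and 95 fragments) lies on its upper edge.

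No IgG peak was called in or within 1 kb of any of the 10 genes, where 2.08% of all protein-coding genes had one. The IgG libraries are shallow, so this bears on the stronger regions only. Divided by the ratio of the genome-wide backgrounds, the outer Elf2 region would correspond to 13.1 to 14.6 fragments at IgG depth, its inner region to 5.93 to 10.2, the Elf1 gene end to 8.02 to 8.89 and Gabpa to 6.45 to 7.71. The lowest IgG summit that was called held 3 fragments. For 12 of the 23 regions, those at Ets1 and the gene end of Elf4 among them, the scaled value stayed under 3, and an equal IgG signal there was not detectable at this depth. No p is given for PPP2CA against IgG, since an exact two-sided permutation test of 2 libraries against 2 can reach no lower than 1 in 3.

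The other ETS genes and the GABP beta partners formed a list of 18 chosen by family, with earlier results of these data known. Of these, 8 had a replicated region at a gene end, where 39.5% of all protein-coding genes had one. Inside the gene 4 had one (10.7% of all protein-coding genes), and 10 had either (45.3%). At gene ends and in all, these shares are near those of other genes. The highest were Elk4, a partner of serum response factor (190 fragments in PPP2CA 1 and 214 in PPP2CA 2, fold 9.77 and 9.99), and the GABP beta genes Gabpb1 (123 and 152, inside the gene as annotated) and Gabpb2 (111 and 126). Next came Etv5 (61 and 69), the ERK-regulated repressor gene Erf (54 and 60) and Etv3 (36 and 48), then Elk3 (24 and 25), Etv4 (19 and 22) and Elk1 (19 and 18). Spib, the nearest relative of Spi1, had an inside region of 23 and 20 fragments. Elf3, Elf5, Ehf, Etv1, Etv2, Fev, Spic and Spdef, several of them known for roles in epithelium, nerve or early vessels, had none. No IgG peak was called at any of the 18.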

How the data were processed

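For each library the authors deposited a narrowPeak list of its own. The tools Trimmomatic, BWA, MACS2, deepTools, HOMER and ChIPseeker are named, without roles, versions or settings, in the submitters' processing notes, as are GRCm38 and mm10. The sources used here do not say whether a control entered the calling. A peak's deposited fold is the ratio of its summit over the local background in that list, and its −log10 p and −log10 q are the authors' own. The deposited score repeats the −log10 q on a larger scale and was not used. These values were compared within a list only.

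Summit fragments and local background were solved for from the fold, read as (fragments + 1) / (background + 1), together with the p, read as an upper Poisson tail. Whole numbers resulted for 100% of peaks (relative tolerance 0.0001). Each list's smallest background was taken as that of the whole genome. Overlap meant 1 bp or more. Gene positions (RefSeq, GRCm38.p6) left out 340 entries below 3 Mb; strands and starts came from the RefSeq promoter table, which matched 7 of the 10 genes. PPP2CA libraries were compared by a two-sided exact binomial test with Benjamini-Hochberg adjustment over all replicated regions, at 0.05. Python 3.11.15, scipy 1.17.1 and statsmodels 0.14.6 were used, and the computations were tested on simulated data. Total reads were not used here.

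The members and lists were chosen with earlier results of these data known. The text names all members, protein-coding genes sharing a member's region, and the other ETS genes. A tRNA gene, a lncRNA gene and a pseudogene were added once the values had been examined. Some of the listed marker genes are not reported here. Windows, thresholds, overlap and left-out libraries were varied.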

Additional observations from a re-analysis of the deposited data

How the results depend on the processing

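The members with a region at a gene end numbered 6 or 7 of 10 under every alternative run (windows of 500 bp and 2 kb, −log10 q of at least 5, at least 20 summit fragments, reciprocal overlap of 50%, either PPP2CA library left out, regions with an IgG peak kept), and Elf4 was the gene lost where it was 6. The members with a region anywhere numbered 10 under each, except 9 with at least 20 fragments, where Ets1 was lost. The 16 inside regions became 10 with −log10 q of at least 5 and 8 with at least 20 fragments, as weak regions no longer counted. They became 13 with a reciprocal overlap of 50%, and 22 to 26 when 1 PPP2CA library was left out, since recurrence was then not required. Over all protein-coding genes the density of 0.292 per 100 kb became 0.196, 0.129 and 0.251 in the first 3 cases, 0.475 without PPP2CA 2 and 0.51 without PPP2CA 1. No IgG peak was found at a member, and no replicated member region had an adjusted p under 0.05 between PPP2CA libraries (exact binomial test), under the alternatives run for those results. No paired analysis was possible because the IgG libraries have no peak, and so no value, at any member region to pair with a PPP2CA value. Depth limits the weak regions: 14 of the 23 held 20 or more fragments in both libraries.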

Other observations

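Fli1 and Ets1 are neighbours on chromosome 9, with 92.8 kb between them, and Erg and Ets2 on chromosome 16, with 116 kb between them. Neither gap holds another protein-coding gene in the gene table used, and neither held a replicated PPP2CA region more than 1 kb from the genes. Of these 4 genes, Ets2 was the 1 with a region at a gene end.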
